A study of Mus musculus with 2 samples.

Results

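The microRNA genes that lie inside Sfmbt2 on mouse chromosome 2 were examined in microRNA sequencing of heart tissue. The rule for them used position alone, although it was set with earlier results of these data known. It took every gene in the count files that GENCODE M21 annotates as a microRNA gene on the plus strand of chromosome 2. The start had to lie inside Sfmbt2 (mm10, 10370510 to 10595253) or within 1 kb of it. This gave 119 of the 2202 genes counted, and 2083 lay elsewhere. The hearts were those of B6CASTF1/J females aged 4 days, an F1 hybrid strain, with no treatment named in the labels. There was 1 group with 2 libraries. Replicate 1 is labelled as animal 3 and replicate 2 as animal 4, although both carry the same donor entry. Whole hearts hold several cell types, so fewer cells of a type and less RNA per cell cannot be told apart. P-values below compare these libraries and no conditions, and cover counting noise only unless stated. The own-strand counts summed to 6417302 in replicate 1 and 5662222 in replicate 2.

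Sfmbt2 encodes a Polycomb-group protein that is imprinted in the mouse and expressed from the paternal allele in early embryos and placenta. One of its introns carries a large rodent-specific array of hairpins, made by repeated tandem duplication, from which the miR-297, miR-466, miR-467 and miR-669 families arise. Loss of the array is known to impair the placenta. The counts do not separate alleles, so parental origin was not examined. Reads that map to several places are in no gene's count, which bears on every value here because the members are copies of each other.

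The members span 53.0 kb of mm10, from 10465287 to 10518279, and all 119 lay within 1 intron of Sfmbt2 (10461473 to 10523944, 62.5 kb), which is intron 10 in one annotated transcript and intron 11 in another. None overlapped an Sfmbt2 exon or its neighbour in the array. The annotated hairpins were 73 to 127 nt long (median 98). By symbol, 29 belonged to Mir669, 23 to Mir466, 14 to Mir467 and 5 to Mir297, and 48 carried only a Gm number. The nearest counted microRNA genes beyond the window were Gm23963, 1224 kb before the first member and at 0 counts in both libraries, and Mir511, 3743 kb after the last, with 28 and 62 counts. No member sat near the limits of the window: the first, Gm22072 (0 and 2 counts), started 94.8 kb after the start of Sfmbt2, and the last, Mir669h (23 and 22), ended 77.0 kb before its end.

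RefSeq (GRCm38.p6) lists a microRNA gene of the same span for 72 of the 119 members. The table of RefSeq microRNA sequences used here held entries for 0 of the 119 and for 8 of the 10 annotated genes outside the array whose symbols place them in the same families. The mature sequences of all 8 relatives are shown so that the letters of these families can be seen. Capitals mark the seed, bases 2 to 8, which is the part that pairs with target transcripts.
mmu-miR-466i-3p: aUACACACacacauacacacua
mmu-miR-466j: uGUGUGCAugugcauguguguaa
mmu-miR-466k: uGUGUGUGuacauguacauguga
mmu-miR-466q: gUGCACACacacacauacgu
mmu-miR-467f: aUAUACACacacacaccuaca
mmu-miR-467g: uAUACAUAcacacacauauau
mmu-miR-467h: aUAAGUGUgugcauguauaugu
mmu-miR-669n: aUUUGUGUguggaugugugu
None of the 8 occurs whole in a member hairpin. The longest stretch found in the array was 22 of the 23 nt of miR-466j (in 10 members) and of miR-466k (in 9), and 21 of the 22 nt of miR-466i-3p. It was 18 nt for miR-467h and miR-669n, 16 nt for miR-467g, 15 nt for miR-466q and 14 nt for miR-467f. The seed letters, with T for U, were searched anywhere along the hairpin strand, so a match need not be a member's own seed. They were most widespread for miR-467g, in 65.5% of the members and 3.12% of the other microRNA genes. For miR-466j, miR-466i-3p and miR-466k the shares were 52.1%, 50.4% and 42.0% of the members, against 2.11%, 5.76% and 7.68% elsewhere. For miR-466q and miR-467f they were 25.2% and 22.7%, against 1.34% and 4.13%. The seed letters of miR-669n occurred in 8.40% of the members and 2.26% of the others, and those of miR-467h in 1 member (0.840%) and 0.624% of the others.

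Few members were counted. Of the 119, 8 reached 10 counts in both libraries, or 6.72%, against 373 of all 2202 genes (16.9%) and 365 of the 2083 genes elsewhere (17.5%). Another 9 members had a count but fell short of that, and 102 had 0 in both (85.7%, against 64.3% of all genes). A floor of 3 counts corresponds to 0.467 CPM (counts scaled to the own-strand total of the library) in replicate 1 and 0.530 CPM in replicate 2, so a member at 0 may lie anywhere below that among reads that map to 1 place. Among genes with a count, the median level was 1.24 CPM over 17 members and 1.72 CPM over all 787 such genes. Among genes that reached 10 counts in both libraries, it was 108 CPM over the 8 members and 75.2 CPM over all 373.

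The cluster as a whole held 11153 counts in replicate 1 and 7407 in replicate 2. The share of the library was 0.174% in replicate 1, with a 95% Clopper-Pearson interval from 0.171 to 0.177. In replicate 2 it was 0.131%, with an interval from 0.128 to 0.134. The mean share was 0.152% ± 0.0304 (SD, n = 2). The intervals cover counting error only and do not overlap. The difference was smaller under other scalings: the log2 ratio of the summed counts, replicate 1 over replicate 2, was 0.41 by library totals but 0.11 with TMM scaling and 0.12 with DESeq2 size factors. Over all 491 genes tested, the median log2 ratio was 0.31 by library totals, 0.01 with TMM and 0.02 with DESeq2 size factors. All of these counts lay on the strand of Sfmbt2: the opposite-strand column held 0 counts for the members in both libraries.

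Mir467d (ENSMUSG00000077021.2; chromosome 2, 10507630 to 10507714, plus strand) was the highest member. It had 5332 counts (831 CPM) in replicate 1 and 3046 (538 CPM) in replicate 2, a mean of 684 ± 207 CPM, and ranked 82 and 93 among the 2202 genes. Mir467e (10505721 to 10505807), the neighbouring copy of the same family, followed with 2390 counts (372 CPM) and 2289 (404 CPM), a mean of 388 ± 22.5 CPM. Mir467d lay above Mir467e in both hearts, and both lay above all other members in each heart.

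Beneath these came a pair of miR-669 genes at the far end of the array. Mir669o (10514300 to 10514395) had 1216 and 698 counts (189 and 123 CPM), and Mir669c (10509296 to 10509404) had 1141 and 608 (178 and 107 CPM). Their ranges over the 2 hearts overlapped, so their order is not resolved beyond the spread. Mir467c (10473931 to 10474027) had 562 and 333 counts (87.6 and 58.8 CPM), and Mir669l (10468971 to 10469068) had 381 and 287 (59.4 and 50.7 CPM), which also overlapped. Both belong to the near end of the array, as does Mir669e (10467495 to 10467613) with 98 and 108 counts (15.3 and 19.1 CPM). Mir669h, the last gene, had 3.58 and 3.89 CPM.

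All 8 members took the same place in the order of CPM in both libraries. The order was also the same for all 8 when CPM was divided by hairpin length. A ninth gene, Mir466n, was the highest of the miR-466 family with 8 and 7 counts (1.25 and 1.24 CPM). The remaining counted members had 3 counts or fewer in a library: Mir297a-2 had 0 and 3, Gm22072 had 0 and 2, Mir669f and Gm23569 had 1 and 0, and Gm22678, Gm25263, Mir466h and Mir466l had 0 and 1.

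**Figure D1:**
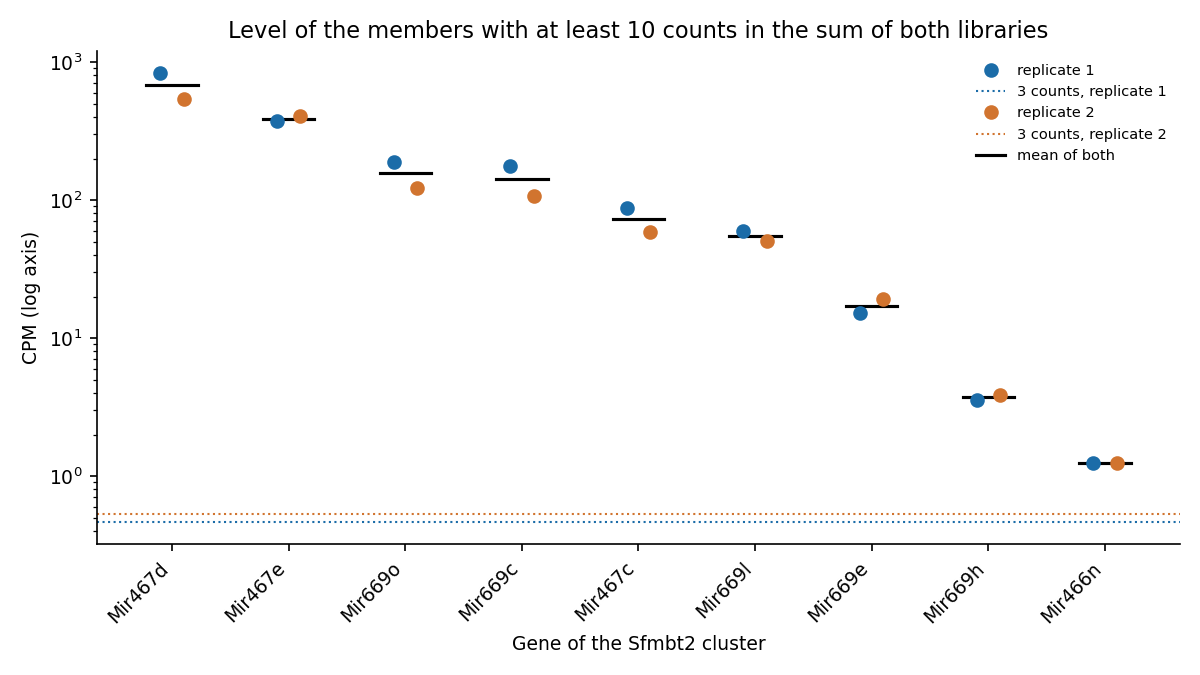
CPM (log axis) of the 9 members with at least 10 counts in the sum of both libraries, 1 point per library, black bars for the mean and dotted lines for 3 counts. Mir467d is highest in both libraries, at 831 and 538 CPM, and Mir466n lowest, at 1.25 and 1.24 CPM.

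Within the cluster, shares do not depend on how libraries are scaled. They cover only reads that map to 1 place, so they need not be the shares of all microRNA from each family. The miR-467 family made up 75.4% ± 1.59 of the cluster's counts (SD, n = 2) through 3 of its 14 members, and miR-669 made up 24.5% ± 1.68 through 5 of 29. The miR-466 family, with 23 members, held 0.0966% ± 0.0352, and miR-297 held 0 and 3 counts. Mir467d and Mir467e together held 69.2% of the cluster in replicate 1 and 72.0% in replicate 2, and with Mir669o and Mir669c the share reached 90.4% and 89.7%.

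The balance between the leading copies differed between the hearts. Mir467d made up 69.0% of the sum of Mir467d and Mir467e in replicate 1 (exact 95% bounds 68.0 and 70.1) and 57.1% in replicate 2 (bounds 55.8 and 58.4). Their ratio was thus 2.23 in replicate 1 and 1.33 in replicate 2. Mir669o, by contrast, made up 51.6% of its sum with Mir669c in replicate 1 (49.6 to 53.6) and 53.4% in replicate 2 (50.7 to 56.2), intervals that overlap. The share of Mir669c in its sum with Mir467c overlapped too, at 67.0% (64.7 to 69.2) and 64.6% (61.5 to 67.7). With a single library per heart, these intervals hold no spread from library preparation.

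**Figure D2:**
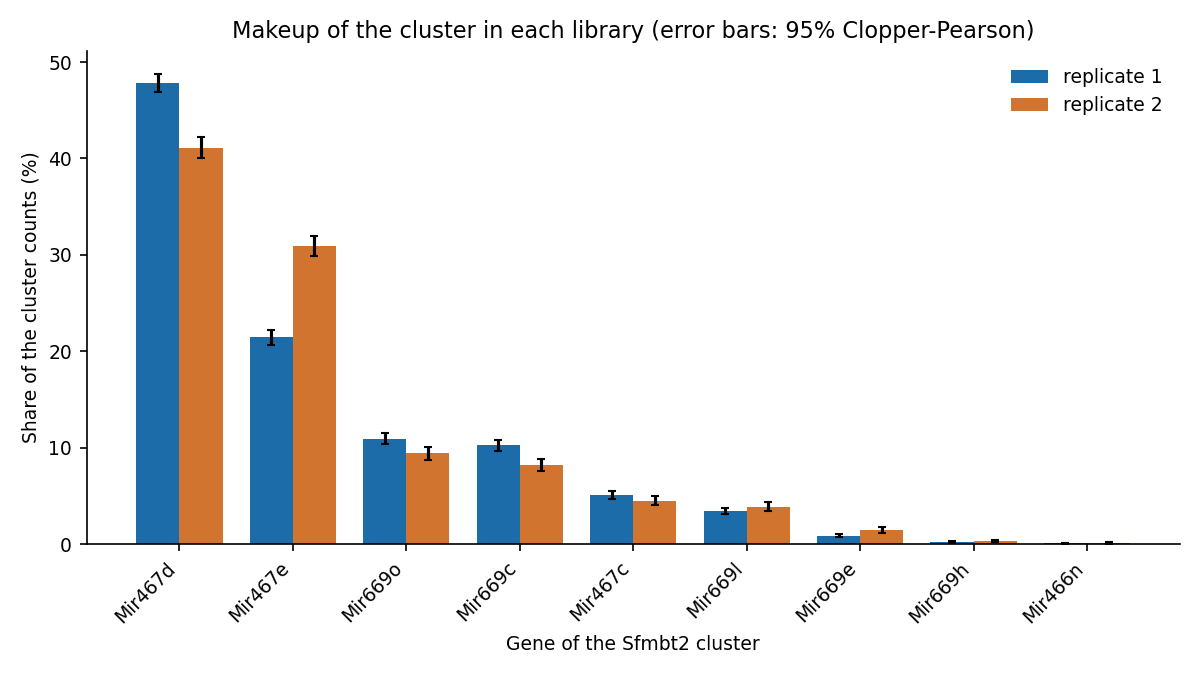
Share of the cluster's counts (%) held by each of 9 members, 1 bar per library, with 95% Clopper-Pearson intervals for counting error. Mir467d held 47.8% in replicate 1 and 41.1% in replicate 2, and the Mir467e bars run the other way, at 21.4% and 30.9%.

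The 8 detected members sat towards the ends of the array and not in its middle. Mir467a-1, Mir467a-10 and the 10 copies between them, among them Gm25022 with the hairpin sequence of Mir467a-2, lie in a row with 2413 to 2470 bp between neighbouring starts (median 2451, 11 spacings). Mir467e starts 2448 bp after Mir467a-10, Mir467d 1909 bp after Mir467e, and Mir467c 2415 bp before Mir467a-1. So the 3 counted miR-467 genes were the outermost units of a run of 15, and the 12 inner ones had 0 counts in both libraries.

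Borders at Mir467a-1 and Mir467a-10 were drawn after the counts were seen, so the following is a description. The 65 genes from Mir467a-1 to Mir467a-10 (27.0 kb) had 1 count in replicate 1, in Gm23569, and 0 in replicate 2. The 21 genes before them held 1042 and 733 counts, or 9.34% and 9.90% of the cluster, with 3 detected. The 33 genes after them held 10110 and 6674 counts, or 90.6% and 90.1%, with 5 detected. Most genes outside the middle were at 0 as well, among them Mir669b, Mir669d and Mir669i, and 20 of the 23 miR-466 members had 0 counts in both libraries.

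**Figure D3:**
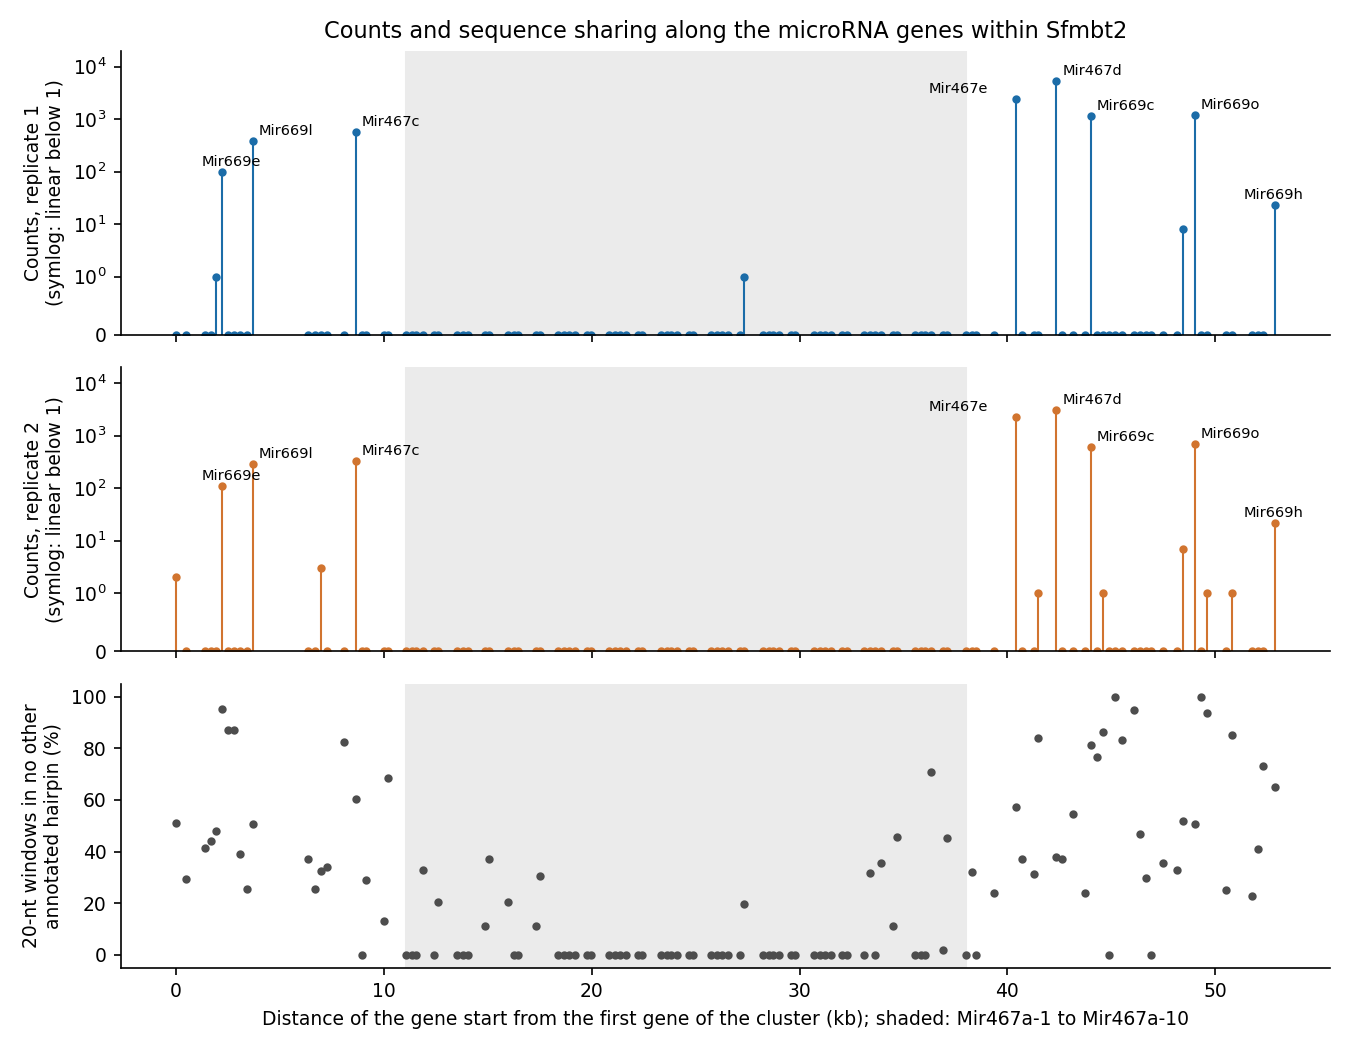
Counts of all 119 members by distance from the first gene (kb) in each library (symlog axis, linear below 1), and the percentage of each hairpin's 20-nt windows found in no other annotated hairpin; the span from Mir467a-1 to Mir467a-10 is shaded. Apart from 1 count of Gm23569 in replicate 1, the counts stand on either side of the shaded span, in which 50 of 65 genes have no such window.

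The middle of the array was also where the copies were most alike. A window was called unshared if its 20 nt occurred once in its own hairpin and in no other annotated microRNA hairpin, on either strand. The hairpins are those annotated on mm10, and whether the copies differ in this F1 hybrid strain was not tested. In the middle 65 genes the median share of unshared windows was 0%, and 45 had a hairpin identical to that of another gene. In the 21 genes before it the median was 41.5% with 0 identical hairpins, and in the 33 after it 46.7% with 2. Among all 119 there were 88 distinct hairpins. The largest identical set had 9 genes, Mir669a-4 to Mir669a-12, and the next had 7, made of Gm25022 and 6 Mir467a copies. All 47 members with an identical partner had 0 counts in both libraries, and of 197 such genes elsewhere 1 was detected.

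Of the 119 members, 117 shared at least 1 window with another microRNA gene (98.3%), against 46.6% of the genes elsewhere, and 54 had no unshared window at all. Those 54 had 0 counts in both libraries, as did 244 of the 247 genes elsewhere with no unshared window. All 8 detected members had unshared windows, but they still shared some: 37.9% of windows were unshared in Mir467d, 57.4% in Mir467e, 50.6% in Mir669o, 81.1% in Mir669c, 60.3% in Mir467c, 50.6% in Mir669l, 95% in Mir669e and 65.1% in Mir669h. Reads from shared parts that map to several places are not in these counts, and how many there were was not tested. By edit distance over the whole hairpin, the nearest member to Mir467d was Mir467e and the reverse, with 7 edits (92.0% identity). Mir467c was 16 edits from Mir467d (83.5%). Mir669o was 7 edits (92.8%) from Gm26092, whose hairpin is identical to that of Mir669a-1 and which had 0 counts. Of the 8 detected genes, Mir669e stood farthest from its nearest other member, 35 edits from Mir669d (71.1%). A higher unshared share did not go with a higher mean CPM among the 8. Mir467d had the lowest share and the highest level, while Mir669e had the highest share and a mean of 17.2 CPM. A relation between share and level was not tested.

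An unshared sequence did not by itself go with a count. Mir466g and Gm22239 shared no 20-nt window with any other annotated microRNA hairpin and had 0 counts in both libraries. In Mir466g, 57 of its 61 windows were also absent from the other M21 transcripts, and in Gm22239 all 84 were. Of the 14 members with over 75% of windows unshared, 2 were detected (14.3%), against 362 of 1357 genes elsewhere (26.7%), and 8 were at 0 in both libraries, against 607 elsewhere. Between 50% and 75%, 5 of 11 members were detected, against 2 of 159 genes elsewhere (1.26%). Between 25% and 50%, Mir467d was the 1 detected member of 29, and 0 of 166 genes elsewhere were detected. From 0% to 25%, 0 of 65 members were detected, and elsewhere 1 of the 247 genes with no unshared window and 0 of the 154 with some, so detection was rare in both.

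**Figure D4:**
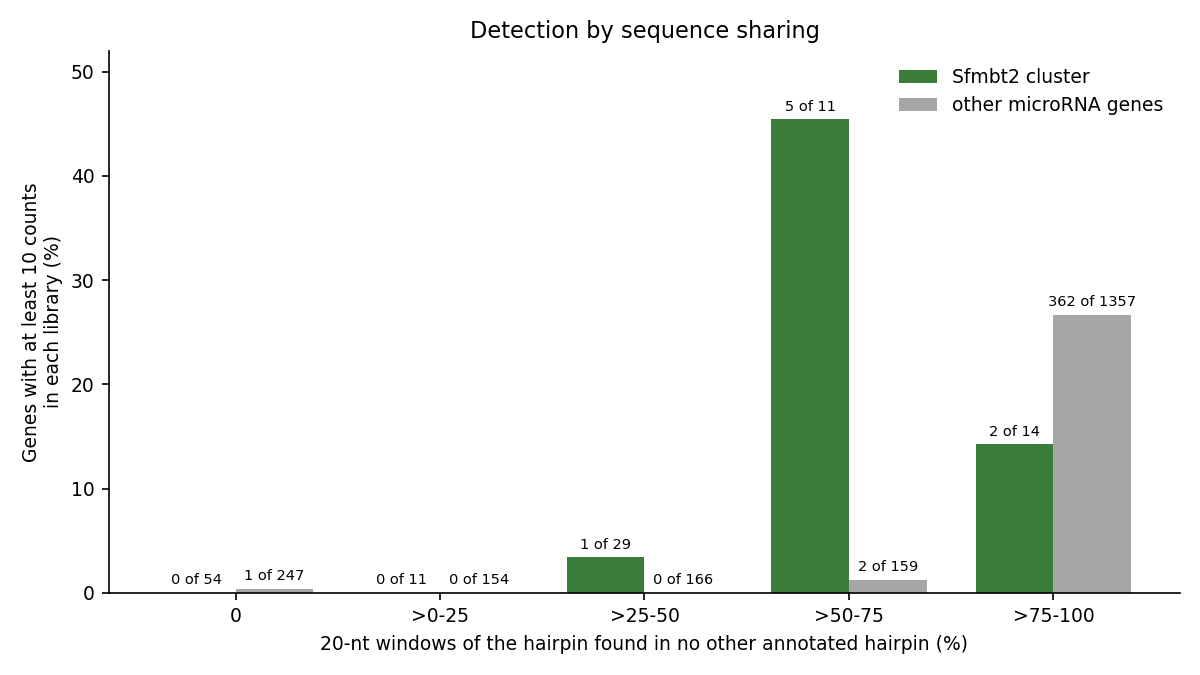
Percentage of genes that reached 10 counts in both libraries, grouped by the percentage of their 20-nt windows found in no other annotated hairpin, for the cluster (green) and other microRNA genes (grey); labels give detected genes of all genes in the bin. No member was detected among the 54 with no unshared window or the 11 with up to 25%, and 5 of 11 were in the bin above 50% and up to 75%.

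In letter makeup the members resembled each other whether or not they were counted. Neighbouring bases alternated between purine and pyrimidine at a median of 83.1% of positions in the 8 detected hairpins and 82.6% in the 102 at 0, against 44.0% in microRNA genes elsewhere. The longest unbroken CA or TG repeat had a median of 9.5 nt in the detected members, 9 nt in those at 0 and 4 nt elsewhere. The longest in the array was 25 nt, in Gm24342, which had 0 counts in both libraries. The GC content had a median of 37.3% over the members and 51.7% elsewhere.

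Relatives outside the array gave no counts. All 10 genes elsewhere named Mir297, Mir466, Mir467 or Mir669 (Mir297-1, Mir466f-4, Mir466i, Mir466j, Mir466k, Mir466q, Mir467f, Mir467g, Mir467h and Mir669n) had 0 counts in both libraries. Of all microRNA genes outside the array, 63.0% were at 0 in both libraries. Every count assigned to genes with these 4 family names in these hearts thus came from the Sfmbt2 intron. Genes elsewhere with only a Gm number were not sorted into families. The multi-mapped reads, which belong to no gene in the files, numbered 5722879 in replicate 1 and 5835632 in replicate 2, or 39.6% and 43.2% of all reads. They came to 513 and 788 times the cluster's own counts, and which genes they came from was not tested.

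No tested member was called different by over 2-fold between the hearts. The 9 members with at least 10 counts in the sum of both libraries were compared by an exact binomial test, two-sided, with TMM scaling of the libraries and Benjamini-Hochberg adjustment over all 491 genes tested. None of the 9 passed an adjusted p under 0.05 with over 2-fold, against 55 of the 491 genes (11.2%: 3.87% higher in replicate 1 and 7.33% in replicate 2). At any fold, 6 of 9 members had an adjusted p under 0.05, beside 47% of all genes tested. Their median absolute log2 ratio was 0.32, and that of all genes tested was 0.43. The 95% exact counting intervals reached past 2-fold for Mir669e (-1.03 to -0.22), Mir669h (-1.33 to 0.49) and Mir466n (-1.95 to 1.40), so a larger difference was not resolved at their depth. The remaining members had too few counts to be tested, among them Mir297a-2 with 0 and 3.

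The members did not move together. Higher in replicate 1 were 4 members, against 19.6% of all genes tested: Mir669c (log2 ratio of replicate 1 over replicate 2 0.42, counting SE 0.07, exact test, adjusted p = 1.03e-08), Mir467d (0.32, SE 0.03, adjusted p = 1e-22), Mir669o (0.32, SE 0.07, adjusted p = 9.14e-06) and Mir467c (0.27, SE 0.10, adjusted p = 0.0152). Higher in replicate 2 were 2 members, against 27.5%: Mir467e (-0.42, SE 0.04, exact test, adjusted p = 1.21e-22) and Mir669e (-0.62, SE 0.20, adjusted p = 0.0055). Mir669l (-0.08), Mir669h (-0.42) and Mir466n (-0.30) did not pass. Mir467d and Mir467e, which start 1909 bp apart, thus lay on opposite sides.

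These calls rest on counting noise alone. With the common dispersion estimated from both libraries, a biological coefficient of variation of 34.0% over detected genes, all 9 members had an adjusted p of 1 in the exact test of edgeR, which called 4 of 491 genes (0.815%). At an unadjusted p under 0.05 that test picked 0 members and 27 of all genes. The dispersion came from the same 2 libraries that were compared, so the differences under test entered it. The lack of calls therefore cannot show that the members are alike in the hearts. Scaling by total counts shifted the median ratio of all genes tested from 0.01 to 0.31 and brought Mir669e to an adjusted p of 0.202 in the exact binomial test. That scaling also moved Mir467e from -0.42 to -0.12 (exact binomial test, adjusted p = 0.0115). Mir467d moved from 0.32 to 0.63 (adjusted p = 2.15e-83), so the 2 genes stayed on opposite sides.

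**Figure D5:**
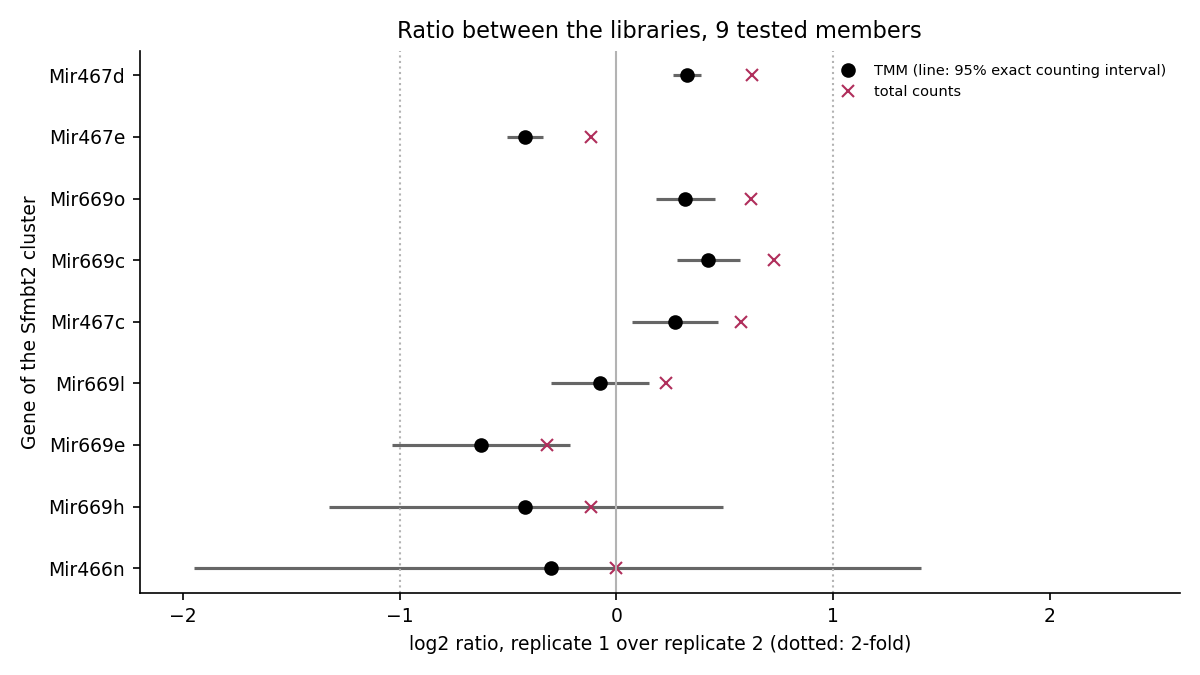
log2 ratio of replicate 1 over replicate 2 for the 9 tested members: points with TMM scaling, lines for the 95% exact counting interval, crosses with scaling by total counts, dotted lines at 2-fold. All points lie within 2-fold, the lines of Mir669e, Mir669h and Mir466n reach past it, and Mir467d (0.32) and Mir467e (-0.42) fall on opposite sides of 0.

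The heart label was matched by part of the 7 heart muscle genes. Those inside myosin genes held 2653 to 10883 CPM but were mixed. Mir208a (10883 CPM in replicate 1 and 6019 CPM in replicate 2) and Mir208b (7457 and 5640 CPM) were higher in replicate 1. Mir499 (2653 and 7487 CPM) was higher in replicate 2. The 4 Mir1a and Mir133a genes, which are copies, held 0.353 to 33.6 CPM, and how many of their reads mapped to several places was not tested. The liver gene Mir122 had counts too, at 105 CPM in replicate 1 and 86.2 CPM in replicate 2. Of 6 neuronal Mir124a and Mir9 genes, 4 had 0 counts in both libraries. The pluripotency genes, from clusters known in embryonic stem cells, summed to 70.1 CPM in replicate 1 and 49.8 CPM in replicate 2, with 3 of 10 at 0. The erythroid genes Mir451a and Mir144 summed to 489 and 126 CPM and were both higher in replicate 1. The 4 leukocyte genes summed to 1301 and 872 CPM but were mixed: Mir155 (810 and 465 CPM) and Mir142 (240 and 87.4 CPM) were higher in replicate 1, Mir223 (83.1 and 148 CPM) was higher in replicate 2, and Mir150 (168 and 171 CPM) was level. The endothelial Mir126a (51829 and 73011 CPM) and the smooth muscle genes Mir143 (45694 and 58717 CPM) and Mir145a (1361 and 1614 CPM) were higher in replicate 2. The part of these cell types in the cluster's level was not tested.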

How the data were processed

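MicroRNAs were sequenced from total RNA of 2 hearts, with a size range below 30 nt per the labels. The authors deposited raw read counts for each microRNA gene, with no normalization, on mm10 with annotation M21 per the README files of the authors. For the aligner, counter and trimming, tool and version were not given in the sources used here. The own-strand column was used. Its 4 summary entries, which stayed out of library sizes and tests, held 55.6% of all reads in replicate 1 and 58.0% in replicate 2. No molecular identifiers are named, so intervals and floors cover counting error only.

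CPM used the summed own-strand counts. Genes with at least 10 counts in the sum were tested between the libraries by an exact binomial test on TMM-scaled sizes (factors 1.11 and 0.900, edgeR 4.0.16, R 4.3.3), adjusted over all genes, with log2 ratios from counts plus 0.5. The quasi-likelihood test was not used because 1 group has no replicated contrast. Alternatives used total counts, DESeq2 1.42.0 size factors, other filters and edgeR's exact test. The binomial test was tested on simulated counts. Hairpin sequences came from GENCODE M21 transcripts. Windows were compared among annotated hairpins, since no mm10 sequence was used here. Counts and hairpins both rest on the mm10 reference, so differences of the F1 hybrid strain from it were not examined. Statistics used Python 3.11.15, scipy 1.17.1, numpy 2.4.6 and pandas 2.3.3. Members with at least 10 counts in each library were named with both values, other counted members with their counts. The members and lists were chosen with earlier results of these data known.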

Additional observations from a re-analysis of the deposited data

How the results depend on the processing

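The cluster's share of 0.152% became 0.190% ± 0.0351 with the column without strand, in which members keep their counts and the total is smaller, and 0.0660% ± 0.0158 with all reads as the denominator. It was 0.131% without replicate 1 and 0.174% without replicate 2. Detection gave 8 members, and 8 to 9 under every other minimum, column or single library tried. No member was called (over 2-fold with an adjusted p under 0.05) under any scaling, filter or test tried. Mir669l changed sign under total counts, from -0.08 to 0.23 (exact test, adjusted p = 0.0809); the change of scaling itself makes that shift. The 6 members past the threshold at any fold all lost it in edgeR's exact test, which adds spread between libraries. That spread was estimated from the same 2 libraries, so the loss cannot show that these members are alike. Members with an unshared window numbered 65 with windows of 18, 20 or 22 nt, and again 65 when every other M21 transcript was searched too, a check added after seeing the data, as was the order per hairpin length. The rest of the genome was not searched, and mature arms cannot be told apart in counts per hairpin. No paired analysis was possible because there is 1 group.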
